A study of Mus musculus with 2 samples.

Results

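The cell cycle genes described here are 40 genes whose products license, copy, package and separate chromosomes, chosen by name among the 33696 mouse genes (GRCm39 features) of a single-cell count matrix. They fall into 6 role groups: 6 licensing genes (Mcm2 to Mcm7), 7 genes of DNA synthesis, 6 of chromatin and chromosome structure, 6 cyclin, cyclin-dependent kinase and anaphase-promoting complex genes, 7 of the kinetochore and its checkpoint, and 8 of the spindle. The cells were CD45+ immune cells (CD45 marks cells of the blood lineage) sorted from subcutaneous tumours of MC38, a mouse colon carcinoma line, in mice that carry human Fc receptors. The matrix holds UMI counts, in which each original RNA molecule counts once, from 1 droplet library of the 3′ ends of transcripts, with mice told apart by hashtag antibodies. A total of 8716 cells of 6 mice were used, and they held 285689 UMIs of the 40 genes.

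All mice were of the same human Fc receptor genotype and bore MC38 tumours under the skin. The antibodies were human IgG1 Fc variants against mouse GITR, a costimulatory receptor of T cells, injected 2 times 3 days apart at 100 µg per mouse, and cells were taken on day 4. The deposited cell table calls N297A an agonist with a null Fc, GA-aFuc an agonist with an enhanced Fc, and GITR/Syn GA-aFuc a non-agonist with an enhanced Fc; the control is named Untreated there and PBS in the series' design. The hashtags gave 2 Untreated mice, 2 N297A mice, 1 GA-aFuc mouse and 1 GITR/Syn GA-aFuc mouse, although the design states 3 per treatment. The 2 single-mouse groups therefore have no replicate, and the sources do not give the age or sex of the mice. Each hashtag was taken as 1 mouse, so p-values measure the spread between hashtags.

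A dividing cell first loads the MCM helicase onto its origins, then copies its DNA with the sliding clamp PCNA and a supply of nucleotides, and finally condenses and separates its chromosomes under control of CDK1 and the anaphase-promoting complex. Transcription of the first set is known to depend on E2F factors in G1 and S phase, and that of the mitotic set on the DREAM and MuvB complexes, which bind the CHR element, often together with NF-Y at CCAAT boxes. In tumours, activated CD8 T cells and NK cells are known to divide, monocytes are mostly formed in the bone marrow and arrive without dividing, and tissue macrophages can divide locally.

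Promoter sequences were printed for 4 members because they show the letters by which these sets are classically told apart. Of the 40 members, 35 matched the RefSeq promoter table by symbol (GRCm38.p6, a build other than that of the counts), and Aurkb, Ccna2, Mcm4, Stmn1 and Tpx2 did not. Each sequence runs 5′ to 3′ on the gene's strand from 250 bases before to 30 bases after the annotated start. Capitals mark an E2F word (TTTCCCGC, TTTCGCGC, TTTGCCGC or TTTGGCGC on either strand) in the licensing genes and the CHR word TTTGAA and the CCAAT box, also searched on both strands, in the mitotic genes. Mcm5 lies at chr8:75109259-75109538 on the plus strand. Mcm3 (chr1:20820283-20820562), Ccnb2 (chr9:70421525-70421804) and Cdc20 (chr4:118437314-118437593) lie on the minus strand.
Mcm5: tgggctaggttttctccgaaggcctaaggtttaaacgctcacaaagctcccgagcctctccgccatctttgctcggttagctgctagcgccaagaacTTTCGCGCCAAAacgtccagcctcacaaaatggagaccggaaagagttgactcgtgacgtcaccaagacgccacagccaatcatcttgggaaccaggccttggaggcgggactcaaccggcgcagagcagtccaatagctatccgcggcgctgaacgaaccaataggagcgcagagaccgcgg
Mcm3: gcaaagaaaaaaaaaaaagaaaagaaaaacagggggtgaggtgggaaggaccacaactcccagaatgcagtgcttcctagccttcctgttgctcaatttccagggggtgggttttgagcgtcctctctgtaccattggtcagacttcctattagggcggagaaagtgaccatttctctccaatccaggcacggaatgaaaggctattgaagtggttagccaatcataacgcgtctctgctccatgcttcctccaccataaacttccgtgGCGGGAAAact
Ccnb2: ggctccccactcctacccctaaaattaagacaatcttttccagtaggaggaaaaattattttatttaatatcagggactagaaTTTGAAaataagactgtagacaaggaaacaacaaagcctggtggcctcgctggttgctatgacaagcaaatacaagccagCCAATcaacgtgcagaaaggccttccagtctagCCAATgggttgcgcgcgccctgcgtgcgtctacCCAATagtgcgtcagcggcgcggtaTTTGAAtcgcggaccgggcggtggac
Cdc20: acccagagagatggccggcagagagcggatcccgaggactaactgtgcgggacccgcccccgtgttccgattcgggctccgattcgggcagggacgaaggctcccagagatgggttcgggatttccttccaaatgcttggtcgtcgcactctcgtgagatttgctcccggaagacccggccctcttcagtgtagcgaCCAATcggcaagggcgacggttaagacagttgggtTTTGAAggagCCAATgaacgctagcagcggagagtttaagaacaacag

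In Mcm5, an origin helicase subunit, 2 overlapping E2F words began 153 and 149 bases before the start. In Mcm3, another subunit, 1 word began at base 19 after the start. In Ccnb2, cyclin B2, CCAAT boxes began 87, 54 and 21 bases before the start and CHR words began 167 bases before it and at base 4 after it. In Cdc20, an activator of the anaphase-promoting complex, a CHR word began 18 bases before the start, between CCAAT boxes at 53 and 8 bases before it. Over the whole window of 300 bases (50 after the start) and both strands, an E2F word stood in 5 of the 12 matched licensing and DNA synthesis members, in 2 of the 23 matched members of the other 4 role groups, and in 2.60% of 27025 genes. The CHR word stood in 1 of 12, in 18 of 23 and in 20.2% of genes, and the CCAAT box in 9 of 12, in 21 of 23 and in 41.1%. CHR and CCAAT stood together in 1 of 12, in 18 of 23 and in 7.97% of genes. By role group, the E2F word stood in 4 of 5 matched licensing members but in only 1 of 7 DNA synthesis members. It stood in 1 of 5 cyclin and anaphase-promoting complex members, 1 of 6 chromatin members, and 0 of 6 kinetochore and 0 of 6 spindle members. A match describes letters and is neither a binding site nor a cause, and it was not tested.

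Depth was even between mice, with 1379 to 1519 cells each and a median of 11259.0 to 12940.0 UMIs per cell. It differed between the 5 larger cell types, from a median of 7880 UMIs in NK cells to 15222 in macrophages. Levels are therefore given as UMIs per 1000000 mouse UMIs of the same cells (CPM), and shares of cells after each cell was thinned to 2000 UMIs, which left out 41 shallower cells. Free RNA, measured in 163454 barcodes of 10 to 100 UMIs, held the 40 genes at 2010 CPM. That is the make-up of free RNA and not the amount of it in a cell. The 7 CD8 T cell markers stood at 691 CPM in free RNA, 24.2 in monocytes and 21.3 in macrophages. The 8 macrophage markers stood at 22081 CPM in free RNA, 11984 in monocytes and 920 in CD8 T cells. The part of free RNA in a cell was not tested, so a single UMI cannot be assigned to the cell or to background. Human features of the same gene names, which should be empty, held 3 UMIs over 39 features.

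Among the 5 larger cell types, the 40 genes were most abundant in CD8 T cells and least abundant in monocytes, and most of their UMIs came from macrophages. In CD8 T cells (907 cells) the summed level was 5456 CPM ± 650 (SD, n = 6 mice), ranging from 4564 to 6372. In macrophages (4104 cells) it was 2941 ± 433, ranging from 2222 to 3303, and in NK cells (723 cells) it was 2946 ± 791, ranging from 1480 to 3460. Those ranges overlapped, so the order of macrophages and NK cells is within their spread. In cDC2, conventional dendritic cells that present antigen to CD4 T cells, 200 cells gave 1848 ± 620, from 630 to 2332, and monocytes (2486 cells) gave 677 ± 37.8, from 635 to 746. CD8 T cells lay above every other of these 5 types in each mouse, with no overlap. Macrophages held 66.3% of all member UMIs in the cells used, CD8 T cells 16.3%, NK cells 7.72%, monocytes 5.86% and cDC2 1.56%.

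The smaller types were described without a test. cDC1, the dendritic cells that cross-present antigen (47 cells), stood at 4864 CPM pooled, and their mice ranged from 1208 to 7651 with 6 to 10 cells each. CD4 T cells (97 cells) stood at 1368 CPM, regulatory T cells (Tregs, 74 cells) at 1086, plasmacytoid dendritic cells (pDC, 21 cells) at 944 and mregDC, mature dendritic cells rich in regulatory molecules (57 cells), at 641. All 4 of those pooled levels lay under the free RNA level.

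**Figure D1:**
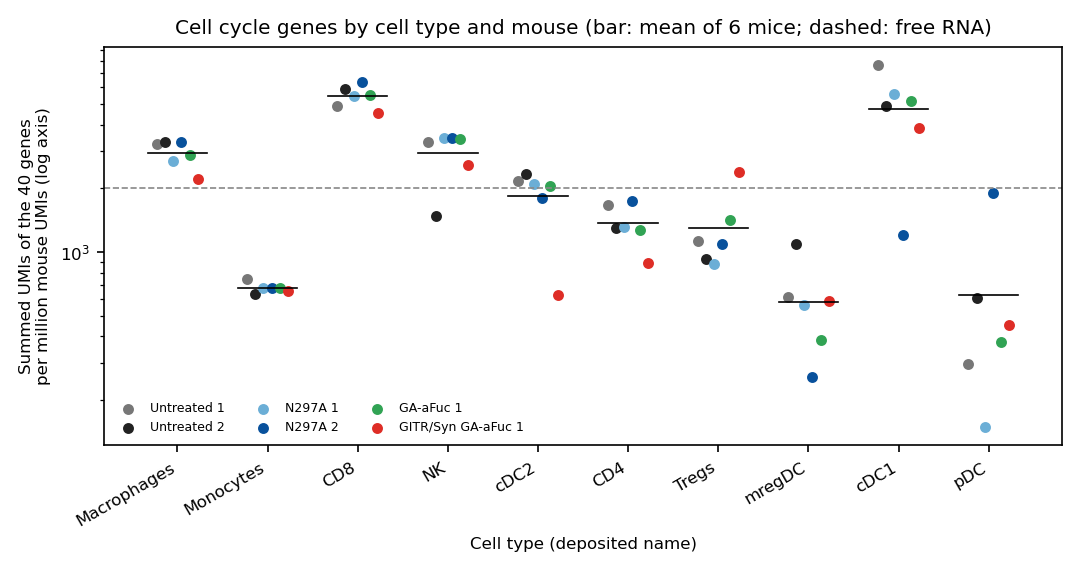
Summed level of the 40 cell cycle genes (CPM, log axis) in each deposited cell type. Points are mice, bars are means of 6 mice, and the dashed line is the free RNA at 2010 CPM. CD8 T cells lie at 4564 to 6372 CPM and monocytes at 635 to 746 CPM, the narrowest spread of the 5 larger types.

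The share of cells rich in members followed nearly the same order. Member-rich cells, those with 3 or more member UMIs of the 2000 kept, made up 48.3% ± 5.13 of CD8 T cells (SD, n = 6), 43.0% ± 3.39 of macrophages, 37.0% ± 1.21 of NK cells, 26.0% ± 8.30 of cDC2 and 16.1% ± 3.05 of monocytes. A level of 3 in 2000 lies below the free RNA level of 2010 CPM. The part of free RNA in such cells was not tested, so member-rich alone was not read as above background. Of 392 member-rich monocytes, 248 held 3 and 87 held 4, and of 428 such CD8 T cells 103 and 75. Without thinning, the pooled shares were 93.3%, 97.0%, 89.2%, 87.5% and 85.5%, which follow the depth of the types and were not read as an order. At 10 or more UMIs, a threshold added after the data were seen, the shares were 18.7% ± 3.74 of CD8 T cells, 16.1% ± 3.94 of macrophages, 7.23% ± 3.68 of NK cells and 6.01% ± 3.96 of cDC2. Only 2 of the monocytes reached it, a share of 0.077% ± 0.12 by mouse. None of the Tregs or mregDC did, which allows shares of up to 4.11% and 5.36% (counting error only).

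Within a type, the members were concentrated in a few of the authors' clusters. Of the 58 clusters, each of which lay in 1 cell type, 9 stood above 4000 CPM and together held 12.4% of cells (1083) and 69.8% of member UMIs. That line is a round value set after the levels were seen, in a gap between clusters. The clusters were made by the authors from these same cells, so their differences in member level are a description. Cluster 38 of the CD8 T cells (139 cells) stood at 16358 CPM, cluster 58 of the NK cells (49 cells) at 14460, and cluster 64 of cDC2 (12 cells) at 10649. Of the 24 macrophage clusters 5 were in this group: 13 (189 cells, 11153 CPM), 17 (181 cells, 11137), 56 (53 cells, 10849), 24 (168 cells, 5552) and 4 (245 cells, 4638). Cluster 60 is the whole of cDC1, at 4864. The nearest cluster below the line was number 53, of macrophages, at 2833 CPM. The 15 monocyte clusters spanned 513 to 820 CPM, and no cluster of that type approached the others.

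Outside these clusters the types were closer together. Cells in the CD8 T cell cluster made up 15.3% of the type and held 78.7% of its member UMIs, and the remaining CD8 T cells stood at 1542 CPM. The NK cluster held 68.8% of that type's member UMIs in 6.78% of its cells, and the remaining NK cells stood at 1109 CPM. The 5 macrophage clusters held 74.1% in 20.4% of cells, with the remaining macrophages at 1036 CPM, and the cDC2 cluster held 62.1% in 6.0% of cells, with the rest at 797 CPM.

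**Figure D2:**
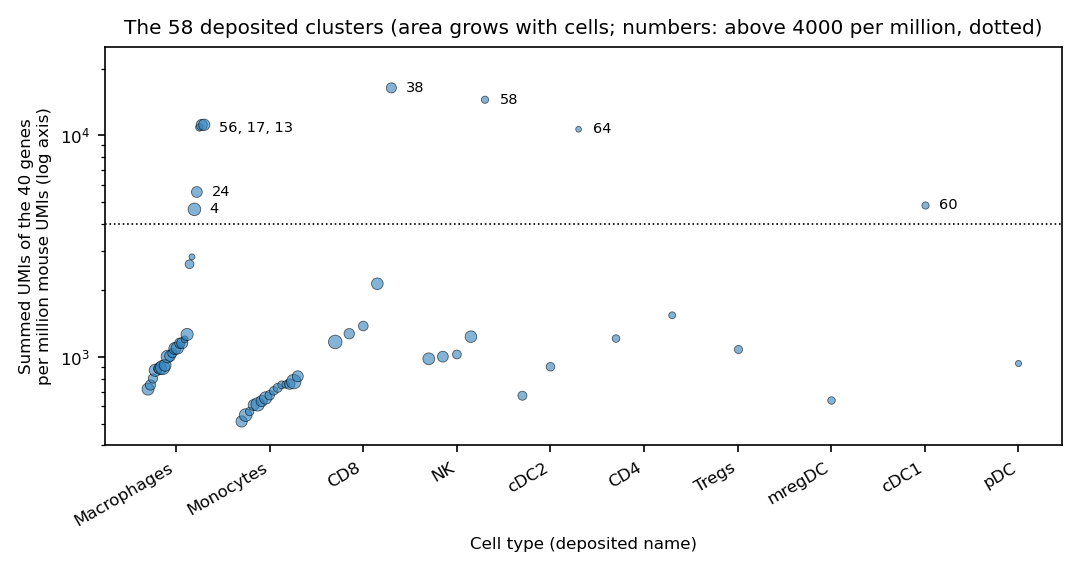
Summed level of the 40 genes (CPM, log axis) in each of the 58 deposited clusters, by cell type. Point area grows with the number of cells, the dotted line is 4000 CPM, and the 9 clusters above it are numbered. The 15 monocyte clusters lie at 513 to 820 CPM, and cluster 38 of the CD8 T cells is the highest at 16358 CPM.

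The 5 macrophage clusters held different members at their highest. All 6 licensing genes peaked in cluster 4 and all 7 DNA synthesis genes in cluster 17. Of the 6 chromatin genes, 5 peaked in cluster 13 and H1f5, a linker histone, in cluster 17. All 6 cyclin and anaphase-promoting complex genes, all 7 kinetochore genes and 6 of the 8 spindle genes peaked in cluster 56. The exceptions were Kif11, a spindle motor, in cluster 13 and Stmn1, a microtubule destabiliser, in cluster 17.

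Single genes show the same steps in clusters 4, 17, 13, 56 and 24. Mcm3 stood at 280, 197, 84.3, 28.9 and 20.9 CPM there, in that order. Pclaf, a PCNA partner, stood at 245, 827, 509, 210 and 127, and Top2a, the topoisomerase that untangles chromosomes, at 220, 768, 966, 915 and 93.3. Ube2c, the ubiquitin carrier of the anaphase-promoting complex, stood at 18.5, 76.5, 413, 954 and 287. Cdc20 stood at 5.09, 16.1, 68.8, 214 and 176. Mcm3 was lower in each next cluster of this order, Pclaf was highest in cluster 17, and Ube2c and Cdc20 were highest in cluster 56. The ratio of 20 summed cyclin, kinetochore and spindle members (without Stmn1, which peaked with the synthesis genes) to the 13 summed licensing and synthesis members was 0.192 in cluster 4, 0.573 in 17, 2.37 in 13, 9.92 in 56 and 5.97 in 24. In the CD8 T cell and NK clusters, 38 and 58, it was 1.02 and 1.01, and both sets of members were highest in that 1 cluster of the type.

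**Figure D3:**
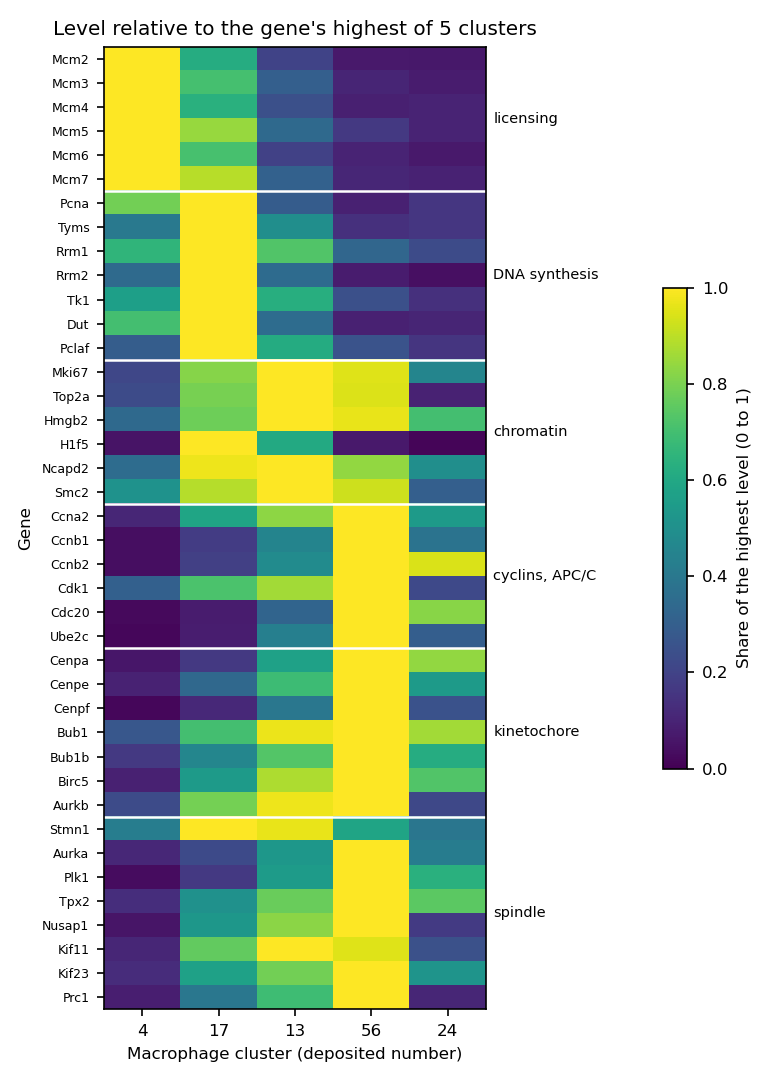
Level of each of the 40 genes in the 5 macrophage clusters above 4000 CPM, as a share of that gene's highest of the 5 (0 to 1); rows are genes grouped by role and columns are clusters 4, 17, 13, 56 and 24. All 6 licensing genes peak in cluster 4 and all 7 kinetochore genes in cluster 56.

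Cells with 10 or more thinned member UMIs were deeper before thinning. Their median UMI count was 1.41 times that of the other cells of the type in macrophages, 1.92 times in CD8 T cells and 3.37 times in NK cells (median over mice). No doublet caller was run, and the part of doublets and depth in this was not tested. Macrophage markers in NK cluster 58 (533 CPM summed over 8 genes) were no higher than in all NK cells (719). Those in CD8 T cell cluster 38 (1027) were near all CD8 T cells (920). Such markers cannot show doublets between lymphocytes or within a type. The T cell genes Cd3e and Cd8a stood at 21.9 and 1.90 CPM in cluster 58, against 2.94 and 0.74 in NK cluster 19.

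Licensing genes had the smallest differences between types. Mcm3 ranged over mice from 69.1 to 98.5 CPM in CD8 T cells (median 89.3), from 61.6 to 91.2 in macrophages (79.8), from 46.8 to 69.9 in NK cells (53.3), from 22.3 to 64.6 in cDC2 (33.4) and from 21.0 to 23.5 in monocytes (22.9). CD8 T cells and macrophages overlapped, and monocytes lay below macrophages, CD8 T cells and NK cells in every mouse. Mcm6, another helicase subunit, ranged from 81.0 to 124.5 CPM in CD8 T cells and from 75.1 to 125.1 in NK cells, which overlapped, and from 13.9 to 19.02 in monocytes.

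Among the DNA synthesis genes, Pcna and Pclaf behaved differently. Pcna, the clamp, stood at 87.3 to 102.6 CPM in monocytes (median 98.0), against 149.9 to 177.3 in macrophages (165.3) and 157.8 to 211.4 in CD8 T cells (191.4). Its free RNA level, 151 CPM, lay above all of the monocyte values, and the part of free RNA in them was not tested. Pclaf ranged from 7.4 to 9.7 CPM in monocytes (median 8.3), from 80.3 to 154.8 in macrophages (129.0), from 236.2 to 319.5 in CD8 T cells (274.0) and from 33.2 to 180.5 in NK cells (131.9). The groups did not overlap between monocytes, macrophages and CD8 T cells for Pclaf, and the lowest NK value was that of Untreated mouse 2. Every other member given by mouse range was also below its own free RNA level in all monocyte mice, and the part of free RNA there was not tested. Free RNA held Pclaf at 76.7 CPM and Stmn1 at 200 CPM.

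Of the chromatin genes, Hmgb2, a DNA-bending protein, carried 20.6% of all member UMIs. It ranged from 834.5 to 1126.8 CPM in CD8 T cells (median 1089.0), from 456.5 to 678.6 in macrophages (598.9), from 268.4 to 663.4 in NK cells (639.2) and from 206.0 to 269.1 in monocytes (220.6), with 340 CPM in free RNA. H1f5 held 7.71% of member UMIs. It ranged from 537.3 to 935.3 CPM in CD8 T cells (median 690.7), from 136.7 to 250.1 in macrophages (192.3) and from 7.6 to 16.7 in monocytes (12.7). H1f5 thus separated CD8 T cells, macrophages and monocytes in every mouse. It belongs to a multigene histone family whose members share sequence, so its counts are uncertain.

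For the mitotic groups, Cdk1, the kinase that starts mitosis, ranged from 44.0 to 68.6 CPM in CD8 T cells (median 60.5), from 35.1 to 57.6 in macrophages (45.7), from 11.1 to 38.8 in NK cells (31.9) and from 4.7 to 6.9 in monocytes (6.0). Ube2c ranged from 92.3 to 153.5 CPM in CD8 T cells (137.7), from 60.5 to 102.4 in macrophages (81.7) and from 6.3 to 10.8 in monocytes (7.1). Birc5, survivin of the chromosomal passenger complex, ranged from 112.9 to 164.5 CPM in CD8 T cells (123.1), from 62.6 to 107.8 in macrophages (95.05) and from 7.5 to 10.8 in monocytes (9.0). All 3 genes were lower in monocytes than in CD8 T cells and macrophages in every mouse. In free RNA Cdk1 stood at 49.0 CPM, above every NK mouse and within the macrophage range. The free RNA levels of Ube2c (77.1 CPM) and Birc5 (85.9 CPM) also lay within their macrophage ranges.

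Cenpa, the histone variant of centromeres, stood at 87.6 CPM in free RNA, with 29.8 to 40.7 CPM in monocytes (median 36.7) against 69.4 to 85.0 in macrophages (75.8) and 105.4 to 180.8 in CD8 T cells (151.2). Stmn1, which held 7.34% of member UMIs, ranged from 381.3 to 549.8 CPM in CD8 T cells (431.7), from 158.9 to 254.2 in macrophages (220.4), from 99.5 to 312.6 in NK cells (256.5) and from 20.7 to 29.4 in monocytes (26.9). Tpx2, a spindle assembly factor, ranged from 36.5 to 69.6 CPM in cDC2 (57.1) and from 40.5 to 94.0 in CD8 T cells (58.4), which overlapped, and from 4.9 to 8.4 in monocytes (5.9). Over the 5 larger types, CD8 T cells had the highest level pooled over mice for 35 members. Macrophages had it for the other 5, Cdc20, Bub1, Bub1b, Aurka and Plk1, which act in mitosis. The mouse ranges of the 2 types overlapped for each of these 5, and for Bub1 the mean over mice was higher in CD8 T cells (19.3 against 18.2 CPM). Monocytes were lowest for 39 members, and cDC2 for Aurka, the centrosomal Aurora kinase.

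Differences between types within the same mice were tested for every gene with edgeR's quasi-likelihood test, with the mouse as a block. A call means a Benjamini-Hochberg adjusted p under 0.05 over all genes tested. Counts of members whose mice did not overlap, in this and the other type pairs, were not set against that count over all genes. In macrophages against monocytes all 40 members were higher, with no overlap of mice for any of them, at a median log2 difference of 2.82 (range 0.68 to 3.84), while 29.0% of the 12900 genes tested were called higher and their median difference was 0.02. The role medians were 1.81 for licensing, 2.32 for DNA synthesis, 2.77 for chromatin, 2.93 for cyclins and the anaphase-promoting complex, 3.03 for the spindle and 3.20 for the kinetochore. H1f5 (3.84 ± 0.09 SE, adjusted p = 2.56e-15) and Pclaf (3.84 ± 0.10, adjusted p = 1.39e-15) stood at the top and Pcna (0.68 ± 0.05, adjusted p = 3.09e-11) at the bottom. The monocyte class carried the 8 macrophage markers at 11984 CPM against 24100 in macrophages, so the classes are not free of each other's genes, and the part of that in the differences was not tested.

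CD8 T cells against monocytes gave 39 members higher and none lower, at a median of 3.16, while 36.5% of the 11565 genes tested were called higher. The 1 member not called was Aurka (0.40 ± 0.20, adjusted p = 0.0783). H1f5 (5.58 ± 0.12, adjusted p = 2.12e-18) had the largest of these 40 differences, and Pclaf had 4.87 ± 0.10 (adjusted p = 3.97e-25).

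CD8 T cells against NK cells, the 2 cytotoxic lymphocyte types, gave 26 members higher and none lower, at a median of 0.81, while 15.8% of the 9676 genes tested were called higher and their median was -0.01. All 7 DNA synthesis genes, 5 of 6 licensing genes, 4 of 6 cyclin and anaphase-promoting complex genes, 4 of 8 spindle, 3 of 6 chromatin and 3 of 7 kinetochore genes were called. Cdk1 was higher by 1.06 ± 0.16 (adjusted p = 7.93e-06) and Hmgb2 by 0.91 ± 0.21 (adjusted p = 0.0239). Other members had differences as large without passing, such as H1f5 (1.21 ± 0.40, adjusted p = 0.0786), Ube2c (1.18 ± 0.42, adjusted p = 0.0950) and Birc5 (1.02 ± 0.32, adjusted p = 0.0625). Mcm6 had 0.05 ± 0.13 (adjusted p = 0.814). The mice of the 2 types did not overlap for 18 members, a count not set against that of all genes. Of 108 NK cells of Untreated mouse 2, 1 lay in cluster 58.

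cDC2 against monocytes gave 33 members higher and none lower, at a median of 1.52, while 15.3% of the 10540 genes tested were called higher. Tpx2 (3.22 ± 0.24, adjusted p = 6.76e-14) and Birc5 (2.29 ± 0.24, adjusted p = 5.17e-10) were among the 8 members whose mice did not overlap. The members not called were Bub1b, Pcna, Aurka, Cdc20, Mcm7, Prc1 and Ccnb1. This count rests on few cells: without the 5% of cells with the most UMIs in each type, 19 of 37 members tested were called.

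**Figure D4:**
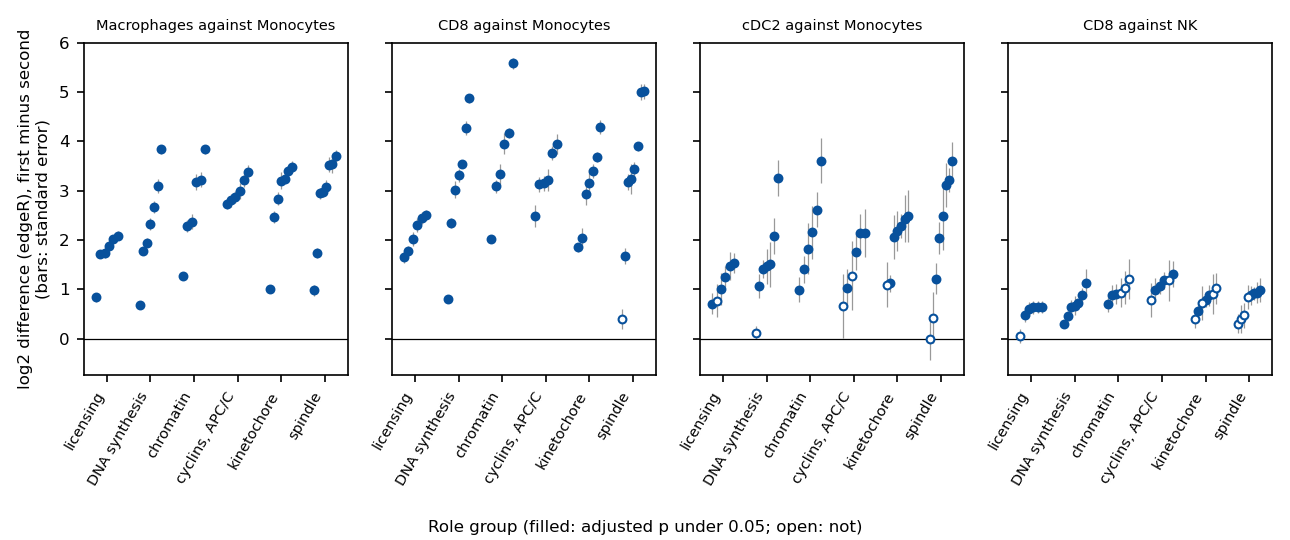
log2 difference of each of the 40 genes between cell types of the same mice (edgeR, first type minus second), by role group; bars are standard errors, filled points have an adjusted p under 0.05 and open points do not. In macrophages against monocytes all 40 lie above 0, from 0.68 for Pcna to 3.84 for H1f5.

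Other cell cycle genes, on lists that leave out the 40 members, were counted in the same fits. In macrophages against monocytes, 45 of 46 other G1/S genes were higher and none lower, and 59 of 61 other G2/M genes were higher and 1 lower. In CD8 T cells against NK cells the counts were 29 higher and 1 lower of 46, and 48 higher and none lower of the 59 tested. The 9 drivers of the G1 phase (Myc, the D cyclins, Cdk2, Cdk4, Cdk6, Cdc25a and E2f3) moved less as a group in macrophages against monocytes, with 5 higher and 1 lower at a median of 0.25, and of 15 cell cycle inhibitors tested 3 were higher and 6 lower.

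Treatment comparisons within each type gave no call for any member, in macrophages, monocytes, CD8 T cells, NK cells or all dendritic cells together. Of the 200 member tests in a comparison (40 in each of 5 types), 195 passed the filter on low counts. All 4 comparisons share mice: 3 share the same 2 Untreated mice, and the fourth sets the same mice in other groups. Counts of members at an unadjusted p under 0.05, here and below, have no share of all genes at that threshold beside them. They therefore cannot show whether or not members exceeded other genes. For N297A against Untreated, 0 members were called by edgeR, with 0.054% of 51882 tests over all genes called, and 18 member tests had an unadjusted p under 0.05. For GA-aFuc against Untreated, 0 members were called against a background of 0.0829%, with 11 such tests. For GITR/Syn GA-aFuc against Untreated it was 0 against 0.0867%, with 55 such tests, and for both Fc-enhanced antibodies against Untreated and N297A it was 0 against 0.0694%, with 39. DESeq2 also called none in any of the 4.

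The GITR/Syn GA-aFuc mouse had the lowest macrophage level. By mouse, macrophages stood at 3246 and 3302 CPM in the Untreated mice, 2689 and 3303 in the N297A mice, 2881 in the GA-aFuc mouse and 2222 in the GITR/Syn GA-aFuc mouse. It was the lowest of the 6 mice for 35 of the 40 members. Pclaf was 80.3 CPM in it against 133.5 and 154.8 in the Untreated mice (log2 difference -0.86 ± 0.17, adjusted p = 0.689), and Top2a was 98.3 against a mean of 186 (-0.93 ± 0.19, adjusted p = 0.718). All 40 members had values below 0 in this comparison, at a median of -0.57 (all genes -0.01), and 28 had an unadjusted p under 0.05. It compares 1 mouse with 2, and the members share cells, so their directions are not independent. Without N297A mouse 1 or without N297A mouse 2 the median was -0.57 in either case. The 2 Untreated mice alone then measured the spread, so calls in such fits rest on that 1 pair and are left out here. Without the member-rich cells the median was -0.31 and 31 members lay below 0. For both Fc-enhanced antibodies against the other groups the macrophage median was -0.35. It was -0.43 without N297A mouse 1 and -0.24 without N297A mouse 2. For N297A against Untreated the macrophage median was -0.13.

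The clusters above 4000 CPM were chosen by this same level, so the shares of cells in them describe it again and support nothing further. The 5 macrophage clusters held 22.6% and 24.2% of macrophages in the Untreated mice, 17.1% and 24.6% in the N297A mice, 19.2% in the GA-aFuc mouse and 14.6% in the GITR/Syn GA-aFuc mouse. The remaining macrophages stood at 1096, 1075, 1039, 1013, 1042 and 953 CPM in the same order, a smaller range. The same mouse had the smallest share of CD8 T cells in cluster 38, at 10.5%, against 14.6% and 15.9% in the Untreated mice, 16.7% and 18.3% in the N297A mice and 17.2% in the GA-aFuc mouse. With 1 mouse a difference between treatments and between mice cannot be told apart.

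**Figure D5:**
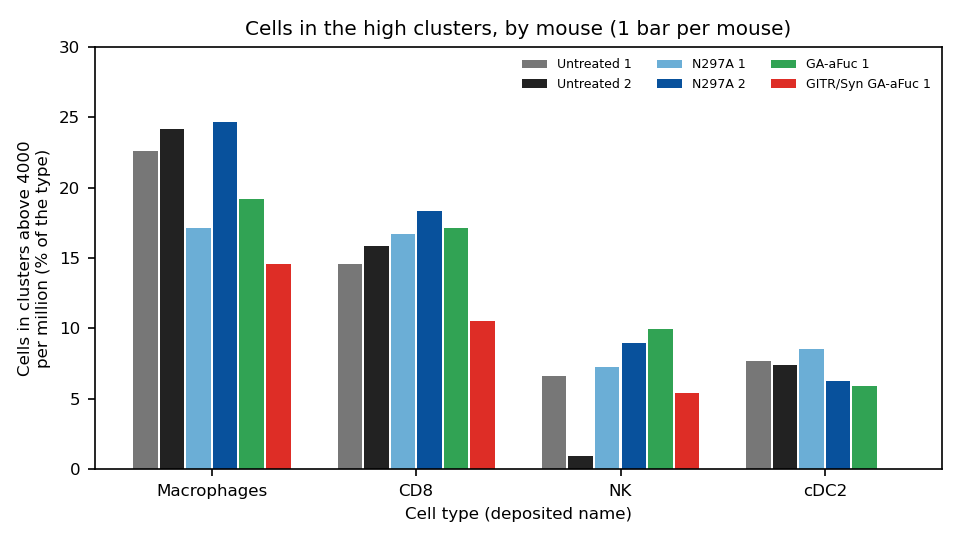
Share of each cell type's cells that lie in its clusters above 4000 CPM (percent), 1 bar per mouse, for macrophages, CD8 T cells, NK cells and cDC2. The GITR/Syn GA-aFuc mouse has 14.6% in macrophages and 10.5% in CD8 T cells, the lowest bar of each, and Untreated mouse 2 has 0.926% in NK cells.

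In CD8 T cells the medians over members against Untreated were 0.19 for N297A, 0.10 for GA-aFuc and -0.20 for GITR/Syn GA-aFuc. The levels by mouse were 4920 and 5878 CPM in the Untreated mice, 5453 and 6372 in the N297A mice, 5548 in the GA-aFuc mouse and 4564 in the GITR/Syn GA-aFuc mouse, so the Untreated and N297A mice overlapped. In NK cells the levels were 3299 and 1480 CPM in the Untreated mice, 3446 and 3460 in the N297A mice, 3406 in the GA-aFuc mouse and 2587 in the GITR/Syn GA-aFuc mouse. The NK median for N297A against Untreated, 0.46, was 1.46 without Untreated mouse 1 and 0.10 without Untreated mouse 2, so it rested on the latter mouse, which had 1 NK cell in cluster 58. The 2 N297A mice alone measured the spread in both of those fits. In monocytes the levels lay between 635 and 746 CPM in all treatments. In dendritic cells together (45 to 66 per mouse), 34 of the 37 members tested lay below 0 for GITR/Syn GA-aFuc against Untreated, at a median of -1.21, with 21 at an unadjusted p under 0.05 and none called. The median there was -1.18 without N297A mouse 1 and -1.22 without N297A mouse 2. The 2 Untreated mice alone measured the spread in these fits. None of the 34 cDC2 of the GITR/Syn GA-aFuc mouse lay in cluster 64, which allows a share of up to 8.82% (counting error only).

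Genes other than the members were then compared between member-rich cells and the other cells of the same type and mouse. The classes were chosen on the members' own UMIs, so the members were left out. In macrophages 2341 genes were higher and 2234 lower in member-rich cells, or 19.5% and 18.6% of 12015 tested. In CD8 T cells 12.2% were higher and 8.1% lower of 8121 (989 and 658), in NK cells 6.51% and 1.96% of 7706 (502 and 151), and in monocytes 0.335% and 0.619% of 9857 (33 and 61). Member-rich cells had median UMI counts 1.19, 1.38, 1.21 and 1.01 times those of the other cells in macrophages, CD8 T cells, NK cells and monocytes, and the part of depth in these counts was not tested. The counts in monocytes and NK cells depended on single mice. In monocytes 10 genes were higher and 36 lower without Untreated mouse 2, and 19, 18 and 15 were higher without Untreated mouse 1, the GA-aFuc mouse and the GITR/Syn GA-aFuc mouse. In NK cells 78 were lower without N297A mouse 1, 92 without Untreated mouse 1 and 96 without N297A mouse 2.

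The other cell cycle lists rose with the members in 3 of the 4 types. The classes were cut on cell cycle genes, so this rise largely follows from that choice and is a description, not independent support. Of the 46 other G1/S genes, all 46 tested were higher in macrophages, all 45 in CD8 T cells and 42 of 43 in NK cells, at medians of 2.08, 2.86 and 2.39. Of the 61 other G2/M genes, all 61, all 58 and all 51 tested were higher, at medians of 3.57, 4.05 and 3.36. Clspn, a replication checkpoint adaptor, had 59.0 CPM in member-rich against 3.26 in other macrophages (4.14 ± 0.10, adjusted p = 4.39e-31), and Cdca8, a partner of Birc5, had 120 against 2.42 in CD8 T cells (5.38 ± 0.26, adjusted p = 3.41e-19). Pola1, a subunit of DNA polymerase alpha, was higher in each of the 4 types, by 2.11 in macrophages, 2.99 in CD8 T cells, 2.33 in NK cells and 0.92 in monocytes. In monocytes 5 of 33 other G1/S genes tested and 1 of 21 other G2/M genes were higher, at medians of 0.57 and 0.26.

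Among regulators, Cdk4 (the D-cyclin kinase), Cdc25a (a phosphatase that activates CDKs) and E2f3 (an E2F factor) were higher in member-rich macrophages, CD8 T cells and NK cells. Of the 9 G1 drivers, 5 were higher and none lower in macrophages (median 0.18), 3 higher and 2 lower of 7 tested in CD8 T cells (0.29), 3 higher and 1 lower of 7 in NK cells (0.35), and none was called of 9 in monocytes (0.01; 2 had an unadjusted p under 0.05). Cdk4 rose by 0.76 ± 0.05 in macrophages (adjusted p = 2.19e-16), 0.95 ± 0.14 in CD8 T cells and 0.66 ± 0.14 in NK cells. Of the 16 inhibitors, 7 were higher and 5 lower in macrophages (median 0.12), 5 and 3 of 13 tested in CD8 T cells (0.19), 1 and 1 of 13 in NK cells (0.16), and none of 12 in monocytes (-0.04; 3 had an unadjusted p under 0.05). Rbl1, a pocket protein that binds E2F, was higher in all 3 types, by 1.74, 1.67 and 1.86, and Btg1, an antiproliferative factor, was lower in all 3, with differences of -0.32, -0.41 and -0.41. Cdkn2c, an inhibitor of Cdk4 and Cdk6, was also higher in macrophages (2.15 ± 0.11, adjusted p = 1.05e-19) and in CD8 T cells (1.66 ± 0.23, adjusted p = 5.68e-07), and had 0.81 ± 0.29 in NK cells (adjusted p = 0.0778). Ccnd2, cyclin D2, was lower in CD8 T cells (-0.71 ± 0.08, adjusted p = 2.11e-08) and in NK cells (-0.58 ± 0.09, adjusted p = 2.68e-05).

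Outside these lists, the largest differences in member-rich macrophages were other mitotic and histone genes, such as Kif14, a midbody motor (6.19 ± 0.34, adjusted p = 3.25e-19), and Aspm, a spindle pole protein (4.35 ± 0.17, adjusted p = 4.87e-24). Histone genes H2ac10, H2ac4, H1f1, H3c3 and H2ac24 were also among them, and members of these multigene families share sequence, so their counts are uncertain. In CD8 T cells Kntc1, a kinetochore gene, had no UMI in the other cells and was at least 32.6-fold higher in member-rich cells, against a floor of 3 counts over the group. Lower in member-rich macrophages were Kdm5b, a histone demethylase (-1.44 ± 0.11, adjusted p = 1.95e-14), and Gpnmb, a glycoprotein of lysosome-rich macrophages (-1.31 ± 0.18, adjusted p = 1.23e-05). In CD8 T cells Kdm5b was also lower (-1.21 ± 0.17, adjusted p = 4.57e-07), as were Cd274, which encodes PD-L1, at 105 against 196 CPM (-0.88 ± 0.11, adjusted p = 1.04e-07), and Bcl2l11, a proapoptotic gene, at 134 against 232 (-0.79 ± 0.09, adjusted p = 2.23e-08). In NK cells Hcst, the adaptor of activating receptors, was lower at 271 against 417 CPM (-0.61 ± 0.09, adjusted p = 7.55e-06). Over all non-members, 436 genes were higher and 50 lower in each of macrophages, CD8 T cells and NK cells, and 96 and 1 of these were on the cell cycle lists.

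Monocytes had fewer such genes. Topbp1, a replication factor, was higher (0.70 ± 0.16, adjusted p = 0.0109), as was Nasp, a histone chaperone (0.42 ± 0.10, adjusted p = 0.0220). Srgn, a granule proteoglycan, was lower at 1868 against 2451 CPM (-0.42 ± 0.04, adjusted p = 1.26e-08), and Il18, an inflammasome cytokine, at 38.9 against 58.3 (-0.59 ± 0.13, adjusted p = 0.00646).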

How the data were processed

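The authors deposited unnormalized UMI counts, made with Cell Ranger 9.0.0 per the file headers, on the builds GRCh38 and GRCm39 per the submitters' processing notes, and a cell table with a treatment, cell type and cluster for each cell. The sources used here do not state the authors' steps of filtering, demultiplexing, doublet removal and clustering. The table entries with at least 1000 mouse UMIs in this library numbered 8767; 33 were dropped because hashtag and treatment disagreed, and 18 because their barcode occurred more than once. Each hashtag was taken as 1 mouse. In the median cell 96.2% of hashtag UMIs came from that hashtag. Cells were thinned to 2000 UMIs with seed 1.

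Pseudobulk counts of a mouse and type were used (at least 20 cells per mouse, or 10 per class) and fitted in edgeR 4.0.16 (R 4.3.3) with TMM, filterByExpr and the robust quasi-likelihood test, adjusted by Benjamini-Hochberg with a threshold of 0.05. Type pairs and member-rich classes had the mouse as a block, since both sides come from the same mice; treatments were fitted together in 1 model of 4 groups without a block. The scripts were tested on simulated data. The members, gene lists, and tests were chosen with earlier results of these data known. Named members are the 2 with the most UMIs in each role group. Named non-members are the 8 highest and 8 lowest called genes with at least 10 CPM in the higher class and mice that do not overlap, and up to 4 of each list by p; members and non-members named for another reason were chosen after their values were seen. UMI counts at the 3′ end do not scale with transcript length. Alternatives were DESeq2 1.42.0, no filter, no block, other thresholds and thinning depths, the top 5% of cells by UMIs left out, and each mouse left out in turn.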

Additional observations from a re-analysis of the deposited data

Results flagged for a closer look

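The group of 6 mice was checked for a single distant mouse in 75 cases (member levels and named members by cell type), and chance alone would mark about 1 case in 20. The summed member level of cDC2 was 630 CPM in the GITR/Syn GA-aFuc mouse against 1811 to 2332 CPM in the other mice. Hmgb2 in cDC2 was 149 CPM in the same mouse against 432 to 590 CPM. Stmn1 in NK cells was 99.5 CPM in Untreated mouse 2 against 238 to 313 CPM.

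The direction of N297A against Untreated differed between cell types. In NK cells both N297A mice had a higher member level than both Untreated mice, with a mean difference of 1063 CPM, and in cDC2 both had a lower level, with a mean difference of -289 CPM. The NK value rests on Untreated mouse 2 (1480 CPM), since Untreated mouse 1 stood at 3299 and the N297A mice at 3446 and 3460, and the shares of member-rich NK cells overlapped. The difference between the 2 cell types was not tested.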

How the results depend on the processing

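Macrophages against monocytes had all 40 members higher under every alternative run, CD8 T cells against monocytes had 39 or 40 called higher, and CD8 T cells against NK cells had 21 to 34 (without the mouse as a block, 40, 39 and 31, and 27 for cDC2 against monocytes). cDC2 against monocytes fell to 19 without the top 5% of cells by UMIs. For Mcm6 in CD8 T cells against NK cells the difference ranged from -0.062 (without GA-aFuc mouse 1) to 0.20 with a mouse left out and turned to -0.004185 without the top 5% of cells, and for Cdk4 in monocytes to -0.054 with 2 or more member UMIs. Members called between treatments numbered 2 without a filter, 1 without the top 5% of cells and 0 to 1 with a mouse left out for N297A; 4 without the top 5% for GA-aFuc; 15 without a filter and 0 to 19 with a mouse left out for GITR/Syn GA-aFuc; and 3, 1 and 0 to 13 for both Fc-enhanced antibodies. With an N297A or an Untreated mouse left out, the spread came from the 1 pair that remained. No paired analysis was possible because the treatments' mice share no animal, and the numbers are in hashtag order.

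Non-members called higher and lower in member-rich cells changed with the fit. With DESeq2 they were 1496 and 1421 in macrophages, 9 and 32 in monocytes, 595 and 224 in CD8 T cells and 290 and 25 in NK cells. Without the mouse as a block, 1064 were lower in macrophages, 9 higher and 8 lower in monocytes, and 303 higher and 84 lower in NK cells. With 2 or more member UMIs there were 20 higher in monocytes, 630 and 373 in CD8 T cells and 265 and 86 in NK cells. With 5 or more, 1162 were lower in CD8 T cells and 832 and 533 were higher and lower in NK cells, and with 10 or more (chosen after seeing the data) 1194 were lower in CD8 T cells. Without a filter, 275 were lower in monocytes. With a mouse left out, monocytes had 10 to 31 higher and 36 to 60 lower, CD8 T cells 441 to 727 lower, and NK cells 347 to 493 higher and 78 to 163 lower. No fit was possible for monocytes at 5 or more or for NK cells at 10 or more, with too few cells.

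Shares of member-rich cells at 2, 5 and 10 UMIs, thinned to 1000 and 4000 UMIs and not thinned were 60.9%, 27.4%, 16.1%, 26.0%, 68.7% and 97.1% in macrophages, 38.1%, 2.28%, 0.077%, 4.14%, 46.5% and 85.3% in monocytes, and 65.9%, 28.4%, 18.7%, 28.3%, 76.5% and 93.4% in CD8 T cells. In NK cells they were 57.5%, 16.3%, 7.23%, 16.8%, 65.9% and 89.7%, with 35.1% without the top 5% of cells, and in cDC2 42.3%, 12.2%, 6.01%, 10.7%, 54.8% and 87.0%. The mean over cells gave 2473 CPM in macrophages, 3819 in CD8 T cells and 1920 in NK cells. Without the 3 members with the most UMIs, CD8 T cells stood at 3287 CPM, macrophages at 1944, NK cells at 1859, cDC2 at 1127 and monocytes at 411, so NK cells lay above macrophages only with all members summed by type.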
